A study of Mus musculus with 6 samples.

Results

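The mitochondrial ribosomal proteins were taken as every gene whose symbol begins with Mrpl or Mrps followed by a number. This rule found 78 genes among the 17060 genes listed in at least 1 of the 6 cultures, 49 with a large subunit symbol (Mrpl) and 29 with a small subunit symbol (Mrps). Lineage-negative BM cells of wild-type mice, a fraction without mature blood cells, were grown under EPO, the hormone that drives red cell formation, and given either the vehicle DMSO or NUP-17d for 48 hours. NUP-17d is a small-molecule inhibitor of pleckstrin-2 (Plek2). The DMSO group and the NUP-17d group each had 3 cultures, and the labels name no difference between them other than the compound. The strain and age of the mice and whether each culture came from its own animal are not given in the labels. P-values therefore measure the spread between these cultures, which may be technical. The labels call the material erythroblasts, and the erythroid markers were abundant in every culture, as given further on.

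The mitochondrial ribosome, or mitoribosome, translates the few proteins encoded by mitochondrial DNA, which are core parts of the respiratory chain and ATP synthase. Its RNA is made inside the organelle, whereas all of its proteins are encoded in the nucleus, made in the cytosol and imported. Some of these proteins descend from those of bacterial ribosomes and others are found only in mitochondria. Developing erythroblasts need mitochondria for heme synthesis and discard them at the end of maturation.

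The libraries held 20076409 to 20419018 expected counts each. An expected count is the authors' estimate of the reads of a gene and need not be whole. Hemoglobin genes took 18.3% to 20.3% of the counts with DMSO and 11.8% to 13.1% with NUP-17d, so the remaining genes took a larger share of each NUP-17d library. Counts were therefore compared after TMM scaling, which corrects for differences in composition and assumes that most genes do not change. Its factors were 0.887 to 0.930 for DMSO and 1.08 to 1.11 for NUP-17d. They take in any difference in composition, and the part due to hemoglobin was not tested. Levels are given on this scale as TMM CPM, the count relative to the scaled library total, unless stated. Changes are log2 fold changes of NUP-17d against DMSO from edgeR's quasi-likelihood test, with p-values adjusted by the Benjamini-Hochberg method over the 12306 genes that passed the filter on low counts, and genes with an adjusted p under 0.05 were called. Plek2, the target of the compound, was at 52.6 ± 2.85 CPM with DMSO and 39.9 ± 1.32 under NUP-17d (n = 3 per group, SD; log2 fold change -0.40, SE 0.048, adjusted p = 1.8e-07).

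All 78 mitoribosomal genes passed the filter and were tested. Few of them were called, and the changes were small. Of the 78, 1 was called higher and 10 were called lower, which makes 11 (14.1%). Over all tested genes 35.3% were called, 16.4% higher and 18.9% lower. Among the 6086 genes whose mean count lay in the range of the members, 30.5% were called, 18.4% higher and 12.1% lower. Beside these genes the share of members called lower was about the same, and the smaller total came from fewer calls higher. The members' mean counts ran from 87.0 to 949.3 with a median of 449.4. Every one of the 78 changed by less than 1.5-fold, with log2 fold changes from -0.35 for Mrpl32 to 0.14 for Mrpl14. The median absolute log2 fold change was 0.087 in the members, 0.134 over all tested genes and 0.117 in genes of the same count range. The median SE was 0.063 in the members and 0.061 over all tested genes. Of the 67 members that were not called, 63 had a 95% interval of the change within 1.25-fold in either direction, and all 67 had one within 1.5-fold.

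The large subunit had 8 of 49 genes called (16.3%), with 1 higher and 7 lower, and a median log2 fold change of -0.07. The small subunit had 3 of 29 called (10.3%), all lower, and a median of -0.058. No small subunit gene was called higher by edgeR's quasi-likelihood test, 0 were higher at an unadjusted p under 0.05, and DESeq2 called 0. The edgeR fit without NUP-17d culture 2 called 1 higher, Mrps24, and the fits without DMSO culture 1 or without NUP-17d culture 1 called 0 small subunit genes in either direction. Over all tested genes the median was 0.014. In the large subunit 34 of 49 genes lay below this median, and in the small subunit 21 of 29 did. The cultures of the groups did not overlap for 3 members that were higher and 20 that were lower with NUP-17d, against 46.0% of all tested genes, 22.8% higher and 23.2% lower. DESeq2, which called 25.6% of all tested genes, called 4 of the members, 0 of them higher (10.4% of all tested genes were) and 4 lower (15.3% were), namely Mrpl32, Mrpl20, Mrpl40 and Mrpl18.

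**Figure D1:**
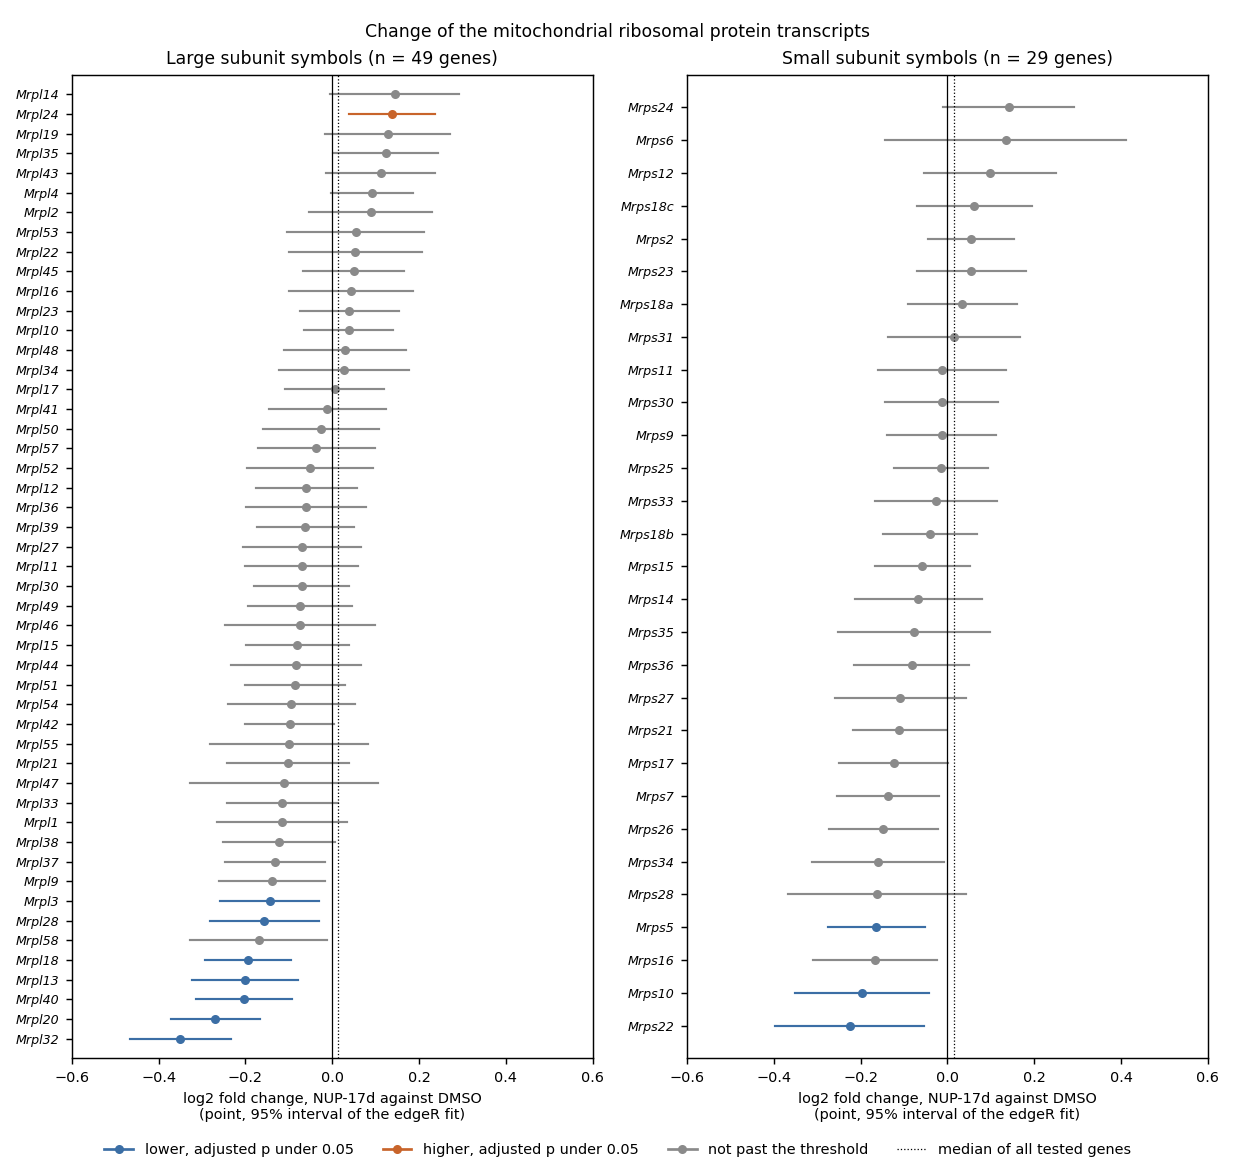
Log2 fold change of each of the 78 mitoribosomal genes, NUP-17d against DMSO after TMM scaling (x axis), with the 95% interval of the edgeR fit, for large subunit symbols on the left and small subunit symbols on the right. Blue genes were called lower, the orange gene higher, grey genes were not called, and the dotted line is the median of all tested genes (0.014). The points lie between -0.35 and 0.14, and with scaling by library totals only the medians of both subunits turn positive (0.20 and 0.21).

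The direction of these changes depended on the scaling of the libraries. When libraries were scaled by their totals only, with no correction for composition, 56 members were called higher and 0 lower by edgeR (0 lower at an unadjusted p under 0.05), beside 68.7% higher and 5.34% lower over all tested genes. limma on log2(FPKM + 1), which has no such correction either, called 61 members higher and 0 lower, beside 68.4% and 5.17% of all tested genes. Scaling by library totals only moved the median of all tested genes from 0.014 to 0.28. TMM scaling and library totals differ by 1 factor per library that shifts all genes alike. The members' position relative to the median of all tested genes is thus the same under both by construction. The large subunit median minus the median of all tested genes was -0.084 with either, and the small subunit difference was -0.072 with either. On the log2(FPKM + 1) scale these differences were smaller, at -0.026 and -0.0094. There the median of all members was 0.19, against 0.20 with library totals. That of all tested genes was 0.22, against 0.28, so the gap narrowed mostly through the latter. Of the 11 called members only Mrpl24 was also called with library totals.

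The CPM of the genes of each subunit, grouped by symbol, were summed as a measure of their transcript level. CPM is not divided by transcript length, so genes with more reads weigh more in these sums. The amounts of ribosomal proteins and assembled subunits were not measured. The large subunit genes summed to 1213, 1182 and 1205 TMM CPM in the DMSO cultures and to 1128, 1152 and 1189 in the NUP-17d cultures. The small subunit genes summed to 610.9, 599.6 and 592.1 with DMSO and to 566.2, 575.7 and 593.8 with NUP-17d. In each subunit the highest NUP-17d culture lay above the lowest DMSO culture, so the groups overlapped. The sum over all members fell by 3.70% after TMM scaling, and rose to non-overlapping levels, 15.9% higher, with library totals only. The members took 0.162% to 0.166% of all counts with DMSO and 0.187% to 0.193% with NUP-17d. The large subunit sum divided by the small subunit sum was 1.998 ± 0.034 in the DMSO cultures and 1.998 ± 0.0055 in the NUP-17d cultures (SD, n = 3 per group). This ratio within a library does not depend on the scaling, and the transcripts of the subunits stood in nearly the same proportion in both groups.

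**Figure D2:**
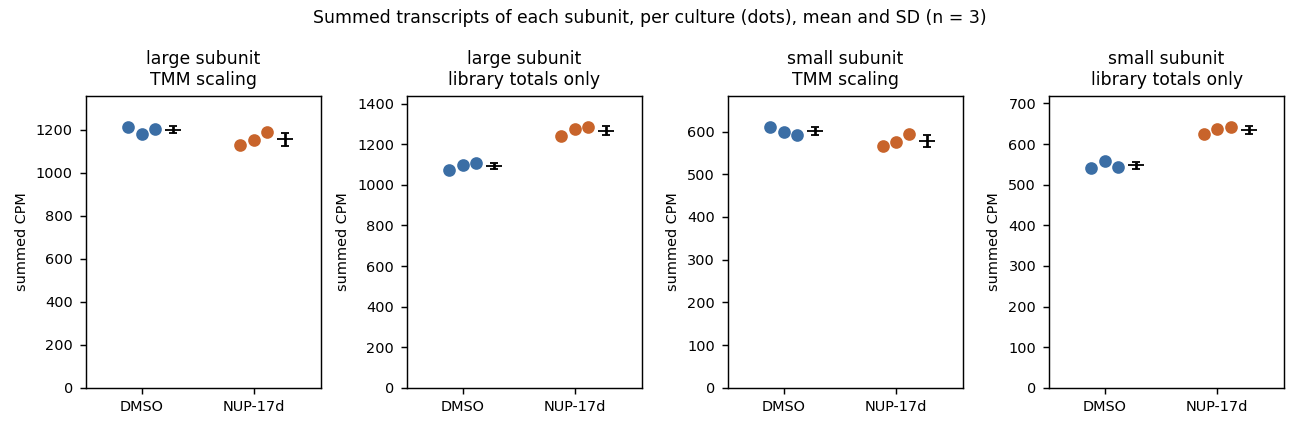
Summed CPM of the large and small subunit genes in each culture (dots), with mean and SD (black, n = 3 cultures), after TMM scaling and with library totals only. After TMM scaling the groups overlap (large subunit 1182 to 1213 with DMSO and 1128 to 1189 with NUP-17d), whereas with library totals only the NUP-17d cultures are the higher ones.

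The erythroid markers fell together, with a median log2 fold change of -0.67. All 12 genes of the erythroblast list were called lower, beside 18.9% of all tested genes (Hbb-bt, log2 fold change -0.92, and Alas2, -0.76). Their summed level was 187769 to 215071 TMM CPM with DMSO and 105863 to 117924 with NUP-17d. None of the 12 was at 0 in any culture. Megakaryocyte markers had 4 of 6 called higher (16.4% of all tested genes were), with sums of 428.7 to 470.8 and 492.1 to 512.8 CPM. Of the other lists, neutrophil markers had 2 of 9 called higher and 1 lower, macrophage markers 2 of 7 higher and 2 lower, mast cell and basophil markers 2 of 6 higher and 2 lower, lymphoid markers 1 of 7 lower, and stem and progenitor markers 1 of 5 tested genes higher. Over all tested genes 16.4% were called higher and 18.9% lower, and each of these lists holds few genes. In bulk RNA, fewer cells of a type and less RNA per cell cannot be told apart, and the part of such shifts in the members' changes was not tested.

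Among the large subunit proteins with a bacterial counterpart, 1 of 30 was called higher and 6 lower (23.3% called, beside 35.3% of all tested genes). Mrpl32, a zinc-binding protein whose N-terminus is removed by the mitochondrial m-AAA protease before it joins the ribosome, had the largest change of all members. Its level was 28.9, 29.7 and 30.4 CPM in the DMSO cultures and 21.8, 24.2 and 23.7 in the NUP-17d cultures (log2 fold change -0.35, SE 0.057, adjusted p = 1.7e-05). Every NUP-17d culture was below every DMSO culture, and the gene was called lower without any 1 of the 6 cultures. On the deposited FPKM scale, which has no correction for composition, its mean was 36.0 ± 1.68 with DMSO and 34.1 ± 1.83 with NUP-17d.

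Mrpl20, the counterpart of a bacterial protein that binds large subunit RNA early in assembly, measured 41.1, 39.5 and 39.2 CPM with DMSO and 34.6, 33.1 and 31.5 with NUP-17d (log2 fold change -0.27, SE 0.050, adjusted p = 0.00011). The groups did not overlap. Its values with library totals only were nearly level (log2 fold change -0.0022, adjusted p = 0.97). Mrpl13, also related to an early-binding bacterial protein, was at 26.0, 23.8 and 25.8 CPM with DMSO and at 20.8, 22.5 and 22.4 with NUP-17d (log2 fold change -0.20, SE 0.059, adjusted p = 0.0094). It stayed lower and called without any 1 of the 6 cultures, with an adjusted p of at most 0.049, and DESeq2 gave an adjusted p of 0.052.

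Mrpl3, which in other ribosomes reaches toward the site of peptide bond formation, was at 29.8, 30.7 and 32.7 CPM with DMSO and at 26.5, 29.1 and 28.8 with NUP-17d (log2 fold change -0.14, SE 0.055, adjusted p = 0.045). The groups stood apart by less than 1 CPM, and its call was lost without DMSO culture 2, DMSO culture 3 or NUP-17d culture 1 (adjusted p up to 0.20). Mrpl28 measured 27.5, 26.7 and 25.6 CPM with DMSO and 22.0, 23.8 and 25.8 with NUP-17d (log2 fold change -0.16, SE 0.061, adjusted p = 0.049). Its groups overlapped, and the call was lost without DMSO culture 1 or 2 or NUP-17d culture 1 or 2 (adjusted p up to 0.24).

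The central protuberance is the crest of the large subunit and in mammalian mitochondria holds a transfer RNA in place of the 5S RNA of bacteria. Of the 6 members assigned to it here, 2 were called, both lower (33.3%, beside 35.3% of all tested genes called and 18.9% called lower). Mrpl18, whose bacterial counterpart binds 5S RNA, was at 49.6, 48.1 and 52.8 CPM with DMSO and at 45.0, 45.1 and 41.3 with NUP-17d (log2 fold change -0.19, SE 0.048, adjusted p = 0.0025). Mrpl40, a protein without a bacterial counterpart, was at 29.1, 30.5 and 30.9 CPM with DMSO and at 25.2, 26.6 and 26.9 with NUP-17d (log2 fold change -0.20, SE 0.054, adjusted p = 0.0040). Neither gene's groups overlapped, and both were called without any 1 of the 6 cultures. The other 4 members assigned there, Mrpl27, Mrpl38, Mrpl46 and Mrpl48, had log2 fold changes of -0.07, -0.12, -0.07 and 0.03 and were not called.

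The rim of the exit tunnel, through which the new protein leaves, had 1 of 8 members called (12.5%, beside 35.3% of all tested genes). Mrpl24, related to a bacterial protein beside that tunnel, was the only member called higher, at 35.2, 34.6 and 34.9 CPM with DMSO and 37.1, 38.1 and 40.0 with NUP-17d (log2 fold change 0.14, SE 0.049, adjusted p = 0.028). Its groups did not overlap. The call was kept in 1 of the 6 fits that left out a culture, the fit without NUP-17d culture 1, and the adjusted p reached 0.14 in the others. Its direction was the same with library totals only (log2 fold change 0.40, adjusted p = 3.1e-07). Without NUP-17d culture 1, Mrpl14, Mrpl19, Mrpl35 and Mrpl43 were called higher as well, and none of these was called with all 6 cultures. Mrpl44 and Mrpl45, which sit at the exit and have no bacterial counterpart, had log2 fold changes of -0.08 and 0.05 and were not called.

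The stalk at the side of the large subunit recruits the GTPases of translation, and 0 of its 4 members were called by edgeR, 0 at an unadjusted p under 0.05 and 0 by DESeq2. Mrpl12, which forms the stalk itself, was at 36.6, 34.4 and 33.4 CPM with DMSO and 31.8, 32.1 and 36.4 with NUP-17d (log2 fold change -0.06, SE 0.057, adjusted p = 0.44). The groups overlapped through NUP-17d culture 3, whereas NUP-17d cultures 1 and 2 lay below every DMSO culture. Mrpl10 and Mrpl11 at its base, and Mrpl53, had log2 fold changes of 0.04, -0.07 and 0.05. Mrpl1, the only member of the opposite L1 stalk, had -0.12 and was not called.

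**Figure D3:**
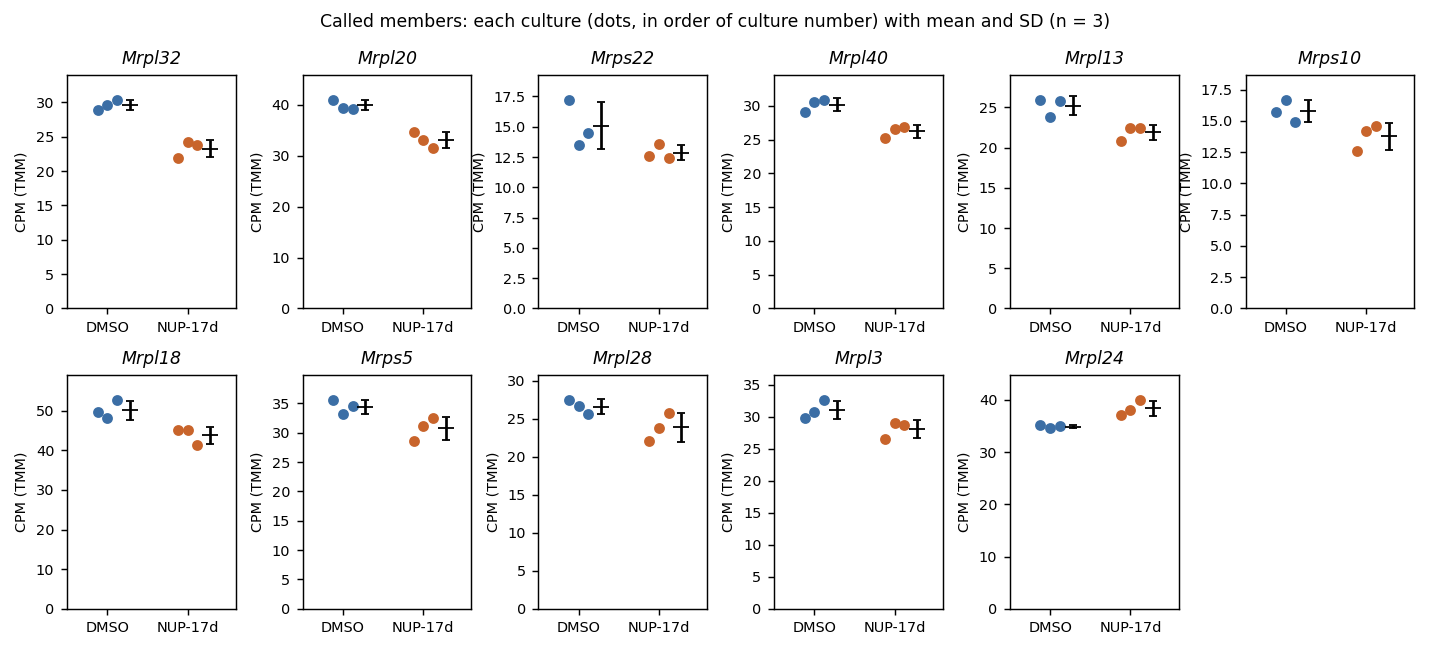
TMM CPM of the 11 called members in each culture (dots, in the order of culture number), with mean and SD (black, n = 3 cultures), y axes from 0. Mrpl24 is the only gene with higher NUP-17d cultures. With library totals only, 8 of the other 10 had a log2 fold change above 0, and Mrpl32 and Mrpl20 did not.

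In the small subunit, 2 of 16 proteins with a bacterial counterpart and 1 of 9 without one were called, all lower. These shares are 12.5% and 11.1%, beside 18.9% called lower over all tested genes. Mrps18a, Mrps28, Mrps30 and Mrps36 were assigned to neither class and were not called. Mrps5, at the entry of the mRNA channel, was at 35.6, 33.2 and 34.5 CPM with DMSO and at 28.6, 31.2 and 32.5 with NUP-17d (log2 fold change -0.16, SE 0.055, adjusted p = 0.021). The groups did not overlap, and the call was lost without DMSO culture 1, DMSO culture 3 or NUP-17d culture 1 (adjusted p up to 0.13). Mrps10, in the head of the subunit, was at 15.8, 16.7 and 14.9 CPM with DMSO and at 12.6, 14.2 and 14.6 with NUP-17d (log2 fold change -0.20, SE 0.075, adjusted p = 0.043). Its call was lost without DMSO culture 1 or 2 or NUP-17d culture 1 (adjusted p up to 0.20). Mrps22, a protein particular to mitochondria, was at 17.2, 13.5 and 14.5 CPM with DMSO and at 12.6, 13.6 and 12.4 with NUP-17d (log2 fold change -0.23, SE 0.083, adjusted p = 0.036). Its groups overlapped, and DMSO culture 1 stood above the rest. The call was lost without DMSO culture 1 or 3 or NUP-17d culture 1 or 3, and without DMSO culture 1 the log2 fold change was -0.12 (adjusted p = 0.31, the highest of these fits).

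None of the 3 small subunit calls was made by DESeq2, whose adjusted p was 0.081 for Mrps5, 0.15 for Mrps10 and 0.12 for Mrps22. The number of called members moved between 6, without DMSO culture 1, and 15, without NUP-17d culture 3. The large subunit had 5 called without DMSO culture 2, and the small subunit had 1 without DMSO culture 3 and 5 without NUP-17d culture 3. Mrpl32, Mrpl20, Mrpl40, Mrpl13 and Mrpl18, all of the large subunit, were called in each of these 6 fits.

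Levels of different members can be compared on the FPKM scale, which divides by transcript length. Over all 6 cultures the members' mean FPKM ran from 3.56 to 66.1 with a median of 18.8. In the large subunit Mrpl42 (53.2), Mrpl52 (51.9) and Mrpl18 (49.6) were highest, and Mrpl19 (5.24) and Mrpl17 (3.56) were lowest. In the small subunit Mrps21 (66.1), Mrps18c (37.0) and Mrps36 (32.3) were highest, and Mrps6 (5.54) and Mrps25 (5.35) were lowest. In each subunit the highest level was over 10-fold the lowest. The lengths ran from 412 to 6712 bases, and the order depends on them. Mrpl17, Mrps25 and Mrpl19 had lengths of 6712, 6076 and 5016 bases. Their mean counts per culture of 493.1, 669.4 and 541.1 lay above the members' median of 449.4. Mrps6, with a length of 795 bases, had the fewest counts.

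The members at the ends of this order that have not yet been described were not called. Mrpl42 was at 35.8, 33.7 and 36.9 TMM CPM with DMSO and at 33.3, 33.3 and 32.8 with NUP-17d (log2 fold change -0.10, SE 0.050, adjusted p = 0.13). The groups did not overlap. Mrpl52 was at 22.3, 19.9 and 18.7 CPM and at 18.2, 20.8 and 19.8 (log2 fold change -0.05, SE 0.070, adjusted p = 0.61). Mrps21 was at 32.3, 29.8 and 32.2 CPM and at 29.0, 29.1 and 29.3 (log2 fold change -0.11, SE 0.052, adjusted p = 0.10). Each Mrps21 value with NUP-17d was below each value with DMSO, by less than 1 CPM at the closest.

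Mrpl19, Mrpl17, Mrps6 and Mrps25, the lowest by FPKM, were not called. Mrpl19 was at 26.4, 25.7 and 24.0 CPM with DMSO and at 25.3, 26.2 and 31.7 with NUP-17d (log2 fold change 0.13, SE 0.070, adjusted p = 0.16), where culture 3 stood above the others. Mrpl17 was at 24.4, 24.5 and 23.7 CPM and at 24.0, 24.1 and 24.8, and Mrps25 at 31.7, 33.5 and 34.2 CPM and at 31.4, 32.8 and 34.2. The groups of both genes overlapped almost fully, with log2 fold changes of 0.01 (SE 0.055, adjusted p = 0.95) and -0.01 (SE 0.052, adjusted p = 0.86). Mrps6 had the fewest counts of all members, a mean of 87.0 per culture, at 3.8, 4.2 and 4.2 CPM with DMSO and 4.2, 4.5 and 4.7 with NUP-17d. Its log2 fold change was 0.13 with the widest error of the 78 (SE 0.135, adjusted p = 0.47).

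Some symbols do not match the place of the protein. Mrps18a, Mrps18b and Mrps18c are paralogs of which Mrps18a belongs to the large subunit in mammals, as does Mrps30, and Mrps36 is also known as a component of the oxoglutarate dehydrogenase complex of the citric acid cycle. Mrps18a was at 20.7, 20.2 and 22.0 CPM with DMSO and 21.8, 20.7 and 21.9 with NUP-17d (log2 fold change 0.03, SE 0.061, adjusted p = 0.70). Mrps18b was at 27.2, 27.7 and 27.3 CPM and 26.8, 26.9 and 26.3 (log2 fold change -0.04, SE 0.053, adjusted p = 0.59), and its groups did not overlap. Mrps18c was at 18.9, 18.2 and 17.1 CPM and 19.1, 18.3 and 19.1 (log2 fold change 0.06, SE 0.064, adjusted p = 0.49). None of the paralogs was called.

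Mrps30 was at 26.1, 24.7 and 24.0 CPM with DMSO and 23.6, 23.4 and 27.1 with NUP-17d (log2 fold change -0.01, SE 0.063, adjusted p = 0.89). Mrps36 was at 24.1, 22.3 and 22.9 CPM and 19.8, 23.4 and 22.2 (log2 fold change -0.08, SE 0.064, adjusted p = 0.34). In both genes the groups overlapped. Counting Mrps30 and Mrps18a with the large subunit left 8 and 3 called genes in the subunits and medians of -0.07 in each. Mrpl58, a release factor-like hydrolase built into the large subunit, was at 14.5, 13.9 and 14.6 CPM with DMSO and 12.6, 11.7 and 13.9 with NUP-17d (log2 fold change -0.17, SE 0.077, adjusted p = 0.090). It had the largest change of any member that was not called.

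A list of 5 mitoribosomal proteins with other symbols was kept apart. In it 0 were called higher (0 at an unadjusted p under 0.05 and 0 by DESeq2). Of the 5, 2 were called lower (40.0%, beside 18.9% of all tested genes), and the median log2 fold change was -0.08. Gadd45gip1, a large subunit protein, was at 42.7 ± 2.97 CPM with DMSO and 35.3 ± 0.744 under NUP-17d (n = 3 per group, SD; log2 fold change -0.27, SE 0.052, adjusted p = 0.00013). Ptcd3, of the small subunit, was at 41.4 ± 0.674 and 37.5 ± 0.876 CPM (log2 fold change -0.14, SE 0.046, adjusted p = 0.018). A single call was left without DMSO culture 2, NUP-17d culture 1 or NUP-17d culture 2. Dap3, Aurkaip1 and Chchd1 were not called, with log2 fold changes of -0.08, -0.05 and -0.03.

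Among the factors that build and serve the mitoribosome, 7.41% of assembly and rRNA modification factors and 21.4% of translation factors were called. For mitochondrial transcription and RNA handling the share was 11.1%, and over all tested genes it was 35.3%. The median SE was 0.092, 0.081 and 0.062 in these lists and 0.061 over all tested genes. Small changes were thus harder to call in the assembly and translation lists. Of 27 assembly and rRNA modification factors, 2 were called, both lower, and the median log2 fold change was -0.014. They were Mrm1, which methylates the large rRNA (-0.16, adjusted p = 0.013), and Noa1, a GTPase of small subunit assembly (-0.17, adjusted p = 0.026). Of 14 translation factors, 2 were called lower, the elongation factors Gfm1 (-0.16, adjusted p = 0.0062) and Tufm (-0.12, adjusted p = 0.042), and 1 higher, the membrane insertase Oxa1l (0.13, adjusted p = 0.039), with a median of -0.08. Of 18 genes of mitochondrial transcription and RNA handling, 2 were called lower, the DNA helicase Twnk (-0.20, adjusted p = 0.029) and the RNA-binding protein Slirp (-0.25, adjusted p = 0.033), with a median of -0.057. These small counts moved with single cultures. No assembly factor was called without NUP-17d culture 2, and 1 was without DMSO culture 1, DMSO culture 3 or NUP-17d culture 1. For the translation factors, 1 was called without DMSO culture 1, DMSO culture 2 or NUP-17d culture 2, and for transcription and RNA handling 0 without NUP-17d culture 1 and 1 when any 1 DMSO culture was left out. The mRNAs encoded by mitochondrial DNA, which the mitoribosome translates, were not analysed here.

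The nuclear-coded respiratory chain subunits, partners of the mitochondrial translation products, had 34 of 79 tested genes called (43.0%), 4 higher and 30 lower, with a median of -0.10. Over all tested genes 35.3% were called, 16.4% higher and 18.9% lower. Atp5b, a catalytic subunit of ATP synthase, and Ndufs1 of complex I were each lower (-0.25, adjusted p = 1.7e-06, and -0.25, adjusted p = 1.1e-05), and Cox7a2l, a factor of respiratory supercomplexes, was higher (0.25, adjusted p = 3.3e-06). The cytosolic ribosomal proteins had 20 of 83 called (24.1%), 17 higher and 3 lower, with a median of 0.05. The split moved with single cultures, to 6 higher and 5 lower without NUP-17d culture 3, 8 and 1 without DMSO culture 3, 9 and 3 without DMSO culture 2, and 22 and 1 without NUP-17d culture 1. Without NUP-17d culture 2 it was 18 and 1. Among them Rpl39 (0.23, adjusted p = 8.0e-05) and Rps7 (0.16, adjusted p = 0.00090) were higher and Rps2 (-0.18, adjusted p = 0.00026) was lower. Respiratory chain subunits and cytosolic ribosomal proteins had median counts of 1128 and 9354, and the mitoribosomal genes 449.4. Their median SEs were 0.048 and 0.037, against 0.063 in the mitoribosomal genes, so small changes were easier to call in them. The difference between these lists and the mitoribosomal genes was not tested, and with library totals only the medians of all these lists were positive, from 0.16 to 0.31.

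**Figure D4:**
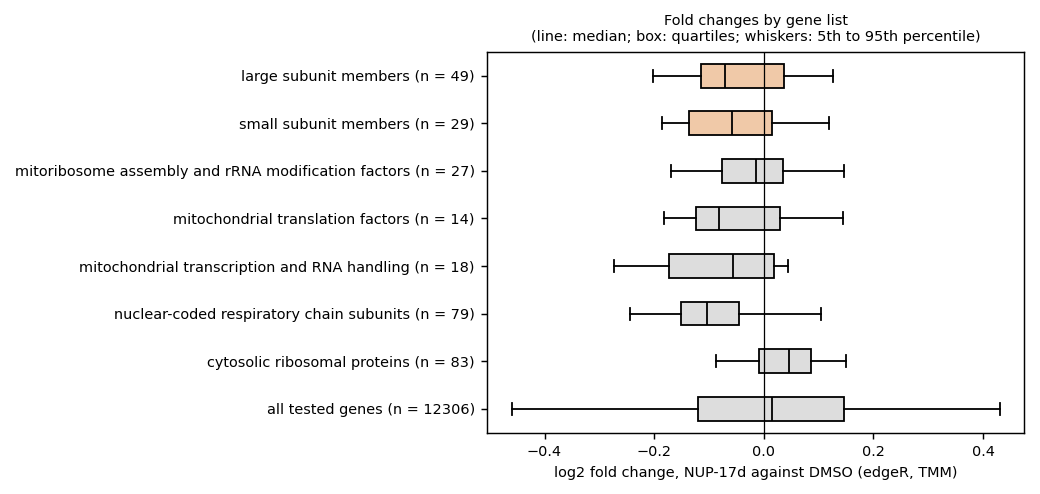
Distribution of log2 fold changes (x axis, NUP-17d against DMSO after TMM scaling) in the mitoribosomal subunits (orange), the related lists and all tested genes, with the median, quartiles and 5th to 95th percentiles. The medians are -0.07 and -0.058 for the subunits, -0.10 for respiratory chain subunits, 0.05 for cytosolic ribosomal proteins and 0.014 for all tested genes, and with library totals only the medians of all lists shown are positive.

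All 78 members were located in the GENCODE M21 annotation of GRCm38, the assembly also called mm10 that the submitters' processing notes name. They lie on 17 chromosomes. The start of 19 members faced the start of a protein-coding gene on the opposite strand within 1000 bases. Of these 19 partners 5 were called (26.3%, beside 35.3% of all tested genes), 3 higher and 2 lower, with a median log2 fold change of -0.057. The partners named here were chosen after their values were seen. Mrpl32, at chr13:14608184-14613165 on the minus strand, starts 75 bases from Psma2, which encodes a subunit of the proteasome. Psma2 was at 129.5, 124.7 and 128.0 CPM with DMSO and at 101.1, 98.3 and 105.0 with NUP-17d (log2 fold change -0.33, SE 0.038, adjusted p = 8.0e-08). Both genes of this pair thus had lower values in every NUP-17d culture than in any DMSO culture, and with library totals only neither was called (-0.084 for Mrpl32 and -0.061 for Psma2).

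The other called partners lay beside members that were not called. Pnpla7 beside Mrpl41 (0.16 and -0.01), Fau beside Mrpl49 (0.12 and -0.07) and Klc4 beside Mrpl2 (0.17 and 0.09) were higher, where the first value is the log2 fold change of the partner and the second that of the member. Ppp1r10 beside Mrps18b was lower (-0.35 and -0.04). The partners of the called members Mrpl40 and Mrps5, Hira and Zfp661, were not called (-0.06 and -0.06).

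**Figure D5:**
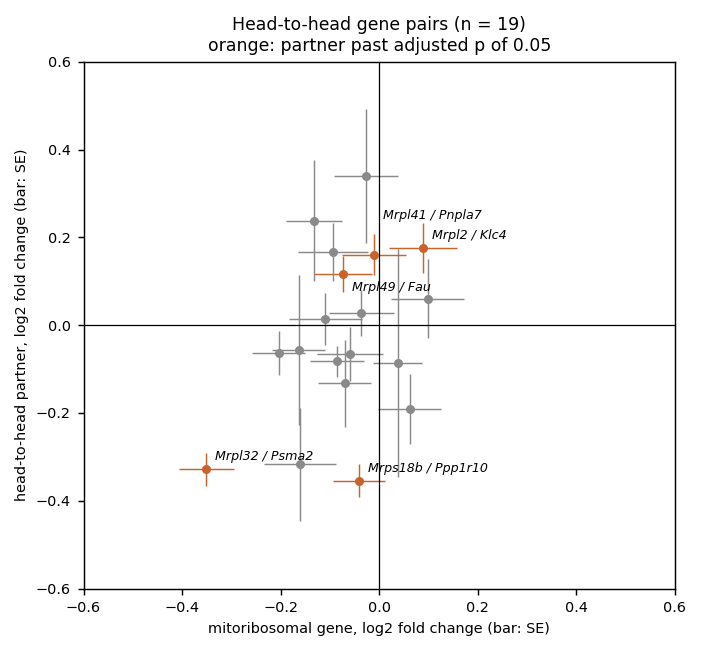
Log2 fold change of each member (x axis) and of the coding gene that starts head to head with it within 1000 bases (y axis), after TMM scaling, for 19 pairs with SE bars and orange points for called partners. Mrpl32 and Psma2 lie together at -0.35 and -0.33, values that were -0.084 and -0.061 with library totals only, and the other 4 called partners stand beside members between -0.07 and 0.09.

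The exons of 28 members overlapped a gene on the opposite strand and those of 8 members a gene on the same strand, and for 23 members a protein-coding gene was involved. Whether the authors' counting used strand is not stated, so reads of such genes cannot be told apart with certainty. Among the called members this concerned Mrpl3, which overlaps the predicted genes Gm38077 on the same strand and Gm47106 on the opposite strand, and 3 that overlap coding genes, Mrpl18, which overlaps Tcp1 (279.6 ± 6.73 CPM with DMSO and 243.2 ± 2.39 with NUP-17d, log2 fold change -0.20, adjusted p = 3.4e-05), Mrpl13, which overlaps Mtbp (-0.09, adjusted p = 0.24), and Mrpl24, which overlaps Rrnad1 (0.12, adjusted p = 0.26). The annotation also lists 5 processed pseudogenes, Mrpl23-ps1, Mrpl48-ps, Mrps36-ps1, Mrps36-ps2 and Mrps36-ps3, which can share reads with their parent genes. Counts of 24 members were not whole in at least 1 culture at a tolerance of 0.005.

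The sequence around the starts of the members was searched in the RefSeq promoter table of GRCm38, which holds 250 bases before and 50 bases after each start. Promoters of 69 of the 78 members were found, among them 10 of the 11 called members, without Mrpl13. The letters searched on both strands were CCGGAAG for the core of an ETS factor site, an unbroken NRF1 palindrome that the first window below spells out, AAGATGGC for the core of a YY1 site and CACGTG for an E-box, and none of these strings contains another. ETS factors, NRF1 and YY1 are known regulators of nuclear genes for mitochondrial proteins. The ETS letters were in 26 of 69 members (37.7%), 20.2% of tested genes and 9.93% of all genes of the table. The YY1 letters were in 12 members (17.4%), 5.36% of tested genes and 3.19% of the table. The NRF1 letters were in 3 members (4.35%), 2.36% of tested genes and 1.07% of the table, and the E-box was in 5 members (7.25%), 11.8% of tested genes and 8.09% of the table. The ETS letters were in 3 of the 10 called members (30.0%) and in 23 of the 59 others (39.0%). These are matches of letters only, and binding was not measured.

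The windows of 30 bases below show the matches in called members, each from 5′ to 3′ on the strand of the member, with the matched letters in capitals.
Mrpl32, NRF1 letters, chr13:14613105-14613134, in an exon of Mrpl32: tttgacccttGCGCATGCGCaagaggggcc
Mrpl32, YY1 letters in reverse complement, chr13:14613258-14613287, in an exon of Psma2: cgcgctctGCCATCTTtacccggaaagtcg
Mrpl20, E-box, chr4:155802833-155802862, outside exons: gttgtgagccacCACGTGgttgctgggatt
Mrpl3, ETS letters, chr9:105053238-105053267, in an exon of Mrpl3: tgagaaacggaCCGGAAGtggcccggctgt
Mrps22, ETS letters, chr9:98601680-98601709, outside exons: tgcacaaaaacctctcgagCCGGAAGttgc
Mrpl18, ETS letters, chr17:12916312-12916341, in exons of Mrpl18 and Tcp1: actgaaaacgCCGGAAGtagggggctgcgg

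The stretch of 74 bases between the first exons of Mrpl32 and Psma2, the pair in which both genes were lower, holds none of the 4 strings and is given on the minus strand.
Mrpl32 and Psma2, chr13:14613166-14613239: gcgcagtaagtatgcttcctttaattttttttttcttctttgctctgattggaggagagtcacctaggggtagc
The 150 bases without exons beside the start of Mrpl24, the only member called higher, hold none of them either and are given on the plus strand.
Mrpl24, chr3:87919356-87919505: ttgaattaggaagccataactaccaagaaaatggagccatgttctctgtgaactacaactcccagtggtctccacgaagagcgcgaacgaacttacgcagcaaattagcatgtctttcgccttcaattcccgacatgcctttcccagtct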

How the data were processed

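RNA from 3 DMSO and 3 NUP-17d cultures was sequenced by the authors, who deposited 1 table per culture with an expected count per gene (an estimate of its reads, not normalized) and an FPKM value (scaled by length and library total, with no correction for composition). Genes without a row in a table were taken as 0. The aligner and counting program are not given in the sources used here, and the library kit and sequencer differ between the labels and the study's methods. Cultures were grouped by the treatment in the labels.

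Expected counts were rounded and fitted with edgeR 4.0.16 in R 4.3.3 (filterByExpr, TMM, quasi-likelihood test, Benjamini-Hochberg adjustment over all tested genes, threshold 0.05). Alternatives were DESeq2 1.42.0, library totals only, RLE factors, removal of hemoglobin genes, no filter, limma 3.58.1 on log-scaled FPKM with pseudocounts of 1 and 0.1, a block for culture number, and fits without 1 culture. Members and lists were chosen with earlier results of these data known. The roles of the proteins were assigned from general knowledge, and the members listed for a part of the ribosome may be incomplete. Mrpl57 and Mrpl58 were not classed by bacterial counterpart. Full statistics were given for called members, those with the highest and lowest FPKM in each subunit, Mrps18a, Mrps18b, Mrps18c, Mrps30, Mrps36 and Mrpl12, and up to 3 called genes with the lowest p from other lists. A gene chosen by this rule is not reported here. Mrpl58 and neighboring genes were added after their values were seen.

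The fits were tested on simulated counts for this comparison with 200 changed genes. edgeR recovered 189, with 9 false calls among 12201 genes. DESeq2 recovered 174 and limma on log2(FPKM + 1) recovered 184, with 0 and 15 false calls among 12306 genes. The recovery of changes as small as those of the members was not tested in this simulation. Neither was the scaling between groups that differ in composition. Same-numbered cultures did not deviate together (r = 0.034, -0.021 and -0.032), so no pairing was used. Cultures of a group differed by more than counting noise (chi-square per degree of freedom 1.84 to 4.55). An exact permutation test of 3 cultures against 3 cannot go below p = 0.1.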

Additional observations from a re-analysis of the deposited data

How the results depend on the processing

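The counts and medians were recomputed under each alternative. Removal of hemoglobin genes, RLE factors and no filter on low counts kept every direction of the named members and held the total called in each subunit and related list within 1.5 times its value, but without the filter 1 translation factor was called lower in place of 2, and Mrpl28, Mrpl3 and Mrps10 lost their calls (adjusted p of 0.070, 0.069 and 0.058). DESeq2 called 4 large and 0 small subunit genes (8 and 3 with edgeR), 1 protein with another symbol, 0 assembly factors, 1 translation factor and 0 genes of transcription and RNA handling, and 7 of the 11 called members lost their call with it. Library totals only called 9115 of all tested genes, 37 large and 19 small subunit genes, 4 proteins with other symbols, 19 assembly factors, 9 translation factors, 12 genes of transcription and RNA handling, 59 respiratory chain subunits and 82 cytosolic ribosomal proteins. limma on log2(FPKM + 1) called 9059 of all tested genes, 39 and 22 subunit genes, and 4, 21, 8, 12, 59 and 82 genes of these lists in the same order. limma on log2(FPKM + 0.1) called 9038, 39 and 22, and 4, 21, 7, 12, 60 and 82. These settings carry no correction for composition by construction.

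Without composition correction the median log2 fold change turned positive, for the large subunit to 0.20 with library totals and 0.19 and 0.20 with limma at pseudocounts of 1 and 0.1, and for the small subunit to 0.21, 0.21 and 0.21. The log2 ratio of summed CPM turned from -0.054 to 0.21 for the large subunit and from -0.055 to 0.21 for the small subunit. The change of single members also turned positive. With library totals the log2 fold change was 0.21 for Mrpl12, 0.066 for Mrpl13, 0.073 for Mrpl18, 0.11 for Mrpl28, 0.12 for Mrpl3, 0.063 for Mrpl40, 0.17 for Mrpl42, 0.22 for Mrpl52, 0.070 for Mrps10, 0.23 for Mrps18b, 0.16 for Mrps21, 0.042 for Mrps22, 0.25 for Mrps25, 0.25 for Mrps30, 0.18 for Mrps36 and 0.10 for Mrps5. With limma at a pseudocount of 1 it was 0.20 for Mrpl12, 0.067 for Mrpl13, 0.075 for Mrpl18, 0.00033 for Mrpl20, 0.11 for Mrpl28, 0.12 for Mrpl3, 0.067 for Mrpl40, 0.17 for Mrpl42, 0.22 for Mrpl52, 0.066 for Mrps10, 0.23 for Mrps18b, 0.15 for Mrps21, 0.045 for Mrps22, 0.22 for Mrps25, 0.24 for Mrps30, 0.18 for Mrps36 and 0.10 for Mrps5. With limma at a pseudocount of 0.1 it was 0.21 for Mrpl12, 0.069 for Mrpl13, 0.077 for Mrpl18, 0.00029 for Mrpl20, 0.11 for Mrpl28, 0.13 for Mrpl3, 0.069 for Mrpl40, 0.17 for Mrpl42, 0.22 for Mrpl52, 0.070 for Mrps10, 0.23 for Mrps18b, 0.16 for Mrps21, 0.049 for Mrps22, 0.25 for Mrps25, 0.25 for Mrps30, 0.18 for Mrps36 and 0.11 for Mrps5.

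When each culture was left out in turn, 3713 to 4008 of all tested genes, 5 to 10 large subunit genes and 0 to 5 small subunit genes were called. The related lists had 1 to 2 proteins with other symbols, 0 to 2 assembly factors, 1 to 3 translation factors, 0 to 2 genes of transcription and RNA handling, 27 to 38 respiratory chain subunits and 9 to 23 cytosolic ribosomal proteins called. The subunit medians stayed negative, from -0.092 to -0.051 for the large subunit and from -0.084 to -0.019 for the small subunit, the latter nearest 0 without NUP-17d culture 1. With the culture number as a replicate block 4543 of all tested genes and the same 11 members were called, and the only count in either direction, of the subunits and related lists, that moved by over 1.5 times was that of cytosolic ribosomal proteins called lower (3 without the block, 5 with it). The cultures share only a number. At a mean of 87.0 to 949.3 counts per member the median SE of a log2 fold change was 0.063, and Mrps6, with the fewest counts, had an SE of 0.135. The causes of these shifts were not tested.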
